A study of Mus musculus with 3 samples.

Results

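The cells described here were mature dendritic cells of the mouse spleen that carried transcripts of the chemokine genes Ccl17 or Ccl22. They were chosen by a fixed rule on their transcript counts, given as UMIs (unique molecular identifiers, 1 per captured RNA molecule). A barcode had to hold 500 or more genes, at most 10% mitochondrial UMIs and a top hashtag count at least 5 times the second. It then needed 3 or more UMIs of Ccr7 and Fscn1 together and 2 or more of Ccl17 and Ccl22 together. At most 1 UMI of Siglech and of Cd79a was allowed, and none of Slc4a1 or Alas2, which removed plasmacytoid, B and erythroid cells. The rule kept 776 cells, called members below. They were 3.60% of the 21547 barcodes that passed the quality and hashtag rules (exact 95% Clopper-Pearson interval 3.36 to 3.86%) and 16.4% of the 4747 cells in the Ccr7 and Fscn1 gate (15.3 to 17.4%). The file held 38717 barcodes in all. The intervals cover counting error only.

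The comparison addressed how splenic dendritic cells differ after panobinostat, an inhibitor of histone deacetylases, in leukemia-bearing mice and in wild-type (WT) mice. The mice were C57BL/6 and received the drug or vehicle for 2 days. Splenic dendritic cells were enriched by a density gradient, sorting for cells without GFP and magnetic depletion of other cell types, and were stained with 6 hashtags and with CD11c and Siglec-H antibody tags. The 6 hashed samples, pooled into 1 capture, were 2 leukemia vehicle, 2 leukemia panobinostat, 1 WT vehicle and 1 WT panobinostat sample. In the hashtag names, vehicle is written D5W, read here as dextrose in water, and panobinostat LBH, read as the start of its code name. The labels state neither the leukemia line, nor the age of the mice, nor whether each hashed sample was 1 animal. P-values therefore measure the spread between these hashed samples, which may be technical, and WT had 1 sample per treatment.

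Dendritic cells that mature, in tissue or at rest, switch on the chemokine receptor gene Ccr7, which guides them to the T cell zones of lymphoid organs, and Fscn1, which encodes the actin-bundling protein fascin. Part of these cells also make CCL17 and CCL22, the ligands of CCR4, a receptor found on regulatory and type 2 helper T cells. In spleen, mature cells can arise from conventional type 1 cells (cDC1, marked by Xcr1 and Clec9a), which present antigen to CD8 T cells, or from type 2 cells (cDC2, marked by Sirpa and Clec4a4), which present to CD4 T cells.

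Ccl22 (ENSMUSG00000031779) lies on chromosome 8 at 94745590 to 94751699 and Ccl17 (ENSMUSG00000031780) at 94810453 to 94812036, both protein-coding and both on the plus strand of GRCm38, so that the 2 genes which defined the members are neighbours in one chemokine cluster. The 250 bases before the RefSeq start site of these 2 genes, and of Il12b and Cxcl9, secreted factors described in the results below, are printed from RefSeq on GRCm38.p6, each on the strand of its gene. Capitals mark matches, on either strand, to 2 letter patterns. GGGNNNNNCC stands for an NF-kB type site and was present in 45.8% of 32851 such windows. TTCNNNNGAA stands for a STAT6 type site and was present in 5.85%. The windows are chr8:94745434-94745683 (Ccl22), chr8:94810203-94810452 (Ccl17), chr11:44399813-44400062 (Il12b) and chr5:92328080-92328329 (Cxcl9, minus strand). The RefSeq start of Ccl22 lies downstream of the gene start at 94745590 given above, so the end of its window is inside that gene span.
Ccl22: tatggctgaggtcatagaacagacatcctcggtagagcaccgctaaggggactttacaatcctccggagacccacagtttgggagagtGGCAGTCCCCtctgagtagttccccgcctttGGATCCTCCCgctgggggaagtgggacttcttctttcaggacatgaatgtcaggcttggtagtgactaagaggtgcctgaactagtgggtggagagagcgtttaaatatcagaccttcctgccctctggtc
Ccl17: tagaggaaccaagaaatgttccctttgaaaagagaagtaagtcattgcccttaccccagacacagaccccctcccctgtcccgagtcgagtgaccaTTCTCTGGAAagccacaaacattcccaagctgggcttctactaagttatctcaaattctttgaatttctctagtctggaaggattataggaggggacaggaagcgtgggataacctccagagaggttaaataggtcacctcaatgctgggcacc
Il12b: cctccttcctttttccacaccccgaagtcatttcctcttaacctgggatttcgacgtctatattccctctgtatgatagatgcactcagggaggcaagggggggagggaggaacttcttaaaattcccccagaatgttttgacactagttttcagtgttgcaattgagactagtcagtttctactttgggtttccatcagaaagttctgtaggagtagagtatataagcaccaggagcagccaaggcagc
Cxcl9: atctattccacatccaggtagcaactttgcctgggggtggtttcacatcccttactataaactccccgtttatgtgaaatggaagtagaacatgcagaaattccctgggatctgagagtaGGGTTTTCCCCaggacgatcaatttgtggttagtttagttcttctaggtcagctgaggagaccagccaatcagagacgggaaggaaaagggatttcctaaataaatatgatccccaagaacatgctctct
The Ccl22 window held NF-kB type matches at 162 to 153 and 131 to 122 bases before the RefSeq start, both on the minus strand. The Ccl17 window held 1 STAT6 type match, TTCTCTGGAA, at 154 to 145. The Cxcl9 window held overlapping NF-kB type matches from 130 to 120. No match to these letters fell in the Il12b window. A match is a description of the sequence, and the NF-kB pattern is common.

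Summed over members, depth ran from 417453 UMIs in leukemia vehicle 2 (31 cells) through 720243 in leukemia vehicle 1 (56), 959209 in leukemia panobinostat 2 (81), 1387440 in leukemia panobinostat 1 (129) and 2540654 in WT panobinostat (182) to 3295019 in WT vehicle (297). Leukemia vehicle 2 stood apart by its small number of assigned cells, 1340 against 2131 to 8470 in the others, and changes of calls without it are given beside the results. Members were deeper than other cells of the Ccr7 and Fscn1 gate. Their median was 7434 UMIs per cell, against 5061.5 in the 3402 gated cells with no Ccl17 or Ccl22 UMI, and the rule asks for 2 UMIs whatever the depth of a cell. Mitochondrial UMIs had a median of 1.97 to 2.20% over the 6 samples.

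The label was checked against its 6 markers. The gate genes were high by construction, with 896 CPM (UMIs of the gene per 1000000 gene UMIs of the summed members) of Ccr7, 726.5 of Fscn1, 460 of Ccl22 and 90.1 of Ccl17. Ccl22 carried the rule: 553 members had Ccl22 and no Ccl17 UMI, 188 had both and 35 had Ccl17 alone. Of the 2 markers outside the rule, Anxa3, a calcium-dependent phospholipid-binding protein, was detected in 86.1% of members and Clu, the secreted chaperone clusterin, in 18.9%. Clu was at 89.1 CPM in members against 2.20 in Xcr1 Clec9a cells and 6.12 in B cells (5 or more Cd79a UMIs). Anxa3 was as high in other mature cells, as given below.

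The members' chemokine counts were low in most cells. The median was 3 UMIs of Ccl17 and Ccl22 together, the highest 85, and 256 members sat at the threshold of 2, next to 569 gated cells with 1 UMI that were left out. Some genes changed by degrees across this threshold. Il12b was at 69.6 CPM in cells with 0 UMIs, 164 with 1, 236 with 2 and 320 with 3 or more, and Cd40 at 107, 135, 168 and 247. Clu and Serpinb1a also rose at each step. Others did not change by degrees. In the same order, Cxcl9 was at 241.5, 241, 442 and 422 CPM and the chemokine gene Ccl3 at 173, 49.3, 35.6 and 35.8. Xcr1 was at 139, 178.5, 186.5 and 181 CPM and Anxa3 at 364, 370, 306 and 372. UMIs of these chemokines were also found in cells that should not make them. Counts of 2 or more Ccl17 and Ccl22 UMIs were seen in 4.59% of erythroid cells (median 17140.5 UMIs), 2.96% of B cells (6739) and 1.55% of plasmacytoid cells (5642). In gated mature cells (5625) the share was 16.4%. Whether these UMIs came from free RNA in the droplets or from doublets was not tested. The B cells, chosen on Cd79a alone, also held 1018 to 5318 CPM of erythroid markers over the samples.

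Markers of B, T and NK cells and of macrophages were scarce in members, and those of erythroid and plasmacytoid cells were less so. The summed level of 6 B cell markers was 7.19 to 42.9 CPM over the samples, that of 6 T cell markers 4.17 to 14.3 and that of 6 macrophage markers 37.5 to 76.0, with Mertk at 0. Of 5 NK cell markers, Ncr1, Klrb1c and Gzma were at 0. Erythroid markers summed to 419 to 910 CPM, led by Hba-a1 at 521 CPM over all members, with Slc4a1 and Alas2 at 0 by the rule. The 7 plasmacytoid markers reached 197 to 247 CPM, and 4 basophil or mast cell genes summed to 20.9 to 127 CPM.

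The markers varied between samples. Where 6 values follow each other, the 2 leukemia vehicle samples come first (numbers 1 and 2), then their 2 panobinostat counterparts, then WT without the drug and last WT with it. Ccl22 was at 397, 345, 530, 472, 420 and 506 CPM, and each of the 3 panobinostat samples was above each vehicle sample. Ccl17 was at 44.4, 76.7, 159, 79.2, 94.1 and 66.5 CPM, and the treatment groups overlapped. Clu was at 56.9, 35.9, 136, 49.0, 101 and 81.1 CPM. It ran in the same order as Ccl17 at the top, with leukemia panobinostat 1 and WT vehicle highest for both. Anxa3 was at 383, 343, 344, 263, 401 and 311 CPM and Ccr7 at 815, 826, 1031, 884, 871 and 892 CPM. Because the rule sets a floor for Ccr7, Fscn1, Ccl17 and Ccl22 in each cell, these levels are descriptions without a test.

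Members made up a larger share of cells in each panobinostat sample than in any vehicle sample. Of all cells that passed the quality and hashtag rules, members were 1.60 and 2.31% with leukemia and vehicle, 4.13 and 3.80% with leukemia and the drug, 3.51% in WT vehicle and 6.08% in WT panobinostat. The mean was 4.67% ± 1.23 (SD, n = 3) with panobinostat and 2.47% ± 0.96 (SD, n = 3) with vehicle, a difference of 2.20 percentage points (2-sided exact permutation test, p = 0.1, the smallest that 3 against 3 samples allow). The groups did not overlap, and the ratio of panobinostat to vehicle was 2.03 in leukemia and 1.74 in WT. With the whole Ccr7 and Fscn1 gate as the denominator, the shares were 9.29, 15.8, 16.9, 17.6, 14.9 and 24.8%. The means were 19.8% ± 4.36 and 13.3% ± 3.54 (exact p = 0.1). At a hashtag ratio of 10 these gate shares overlapped, with leukemia vehicle 2 at 18.5% above leukemia panobinostat 1 at 17.5% and 2 at 17.1% (exact p = 0.3). The gate itself held 17.3, 14.6, 24.5, 21.5, 23.5 and 24.5% of cells. When each cell was first thinned to 3000 UMIs, members were 0.651, 0.933, 2.05, 2.08, 1.49 and 3.01% of cells, and again no vehicle sample reached a panobinostat sample. Median depth of the gated cells was 4946 to 5656 UMIs with vehicle and 5232 to 6673 with panobinostat, and the thinned shares are at equal depth. Enrichment by the depletion kit precedes these shares, so they are shares of the enriched cells and not of the spleen.

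**Figure D1:**
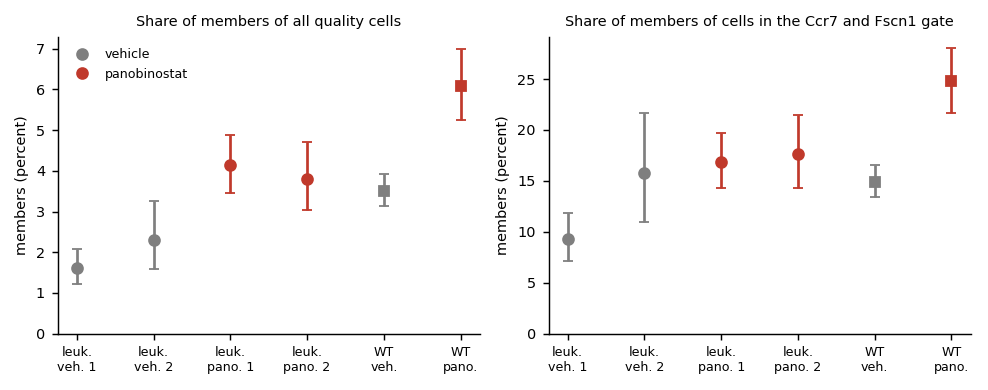
Members as a percentage of all cells passing the quality and hashtag rules (left) and of cells in the Ccr7 and Fscn1 gate (right), 1 point per hashed sample with its exact 95% interval for counting error. The 3 panobinostat samples (red) lie at 3.80 to 6.08% on the left, above the 3 vehicle samples (grey) at 1.60 to 3.51%.

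Few genes of the members differed between panobinostat and vehicle. Of 7377 genes tested across the 6 sums, 2 passed (0.0271%; 1 higher and 1 lower, 0.0136% each), at an adjusted p under 0.05 in edgeR's quasi-likelihood test with disease state as a covariate and Benjamini-Hochberg adjustment, and 297 had an unadjusted p under 0.05. Without leukemia vehicle 2, 2 were higher and 2 lower. Lgals1, which encodes the sugar-binding protein galectin-1, rose. It was at 48.6, 83.8 and 40.7 CPM in the vehicle samples of leukemia and WT, and 210.5, 142 and 104 with panobinostat, with every panobinostat sample above every vehicle sample. Its log2 change was 1.47 (SE 0.19, edgeR adjusted p = 0.0056). Without leukemia vehicle 1 the change was 1.30 and the adjusted p 0.14 (edgeR), and with the stricter gate (6 or more UMIs of Ccr7 and Fscn1 and 4 or more of Ccl17 and Ccl22) 1.24 and 0.41. In the leukemia samples alone they were 1.53 and 0.15. Atp1b1, the beta subunit of the sodium pump, fell. It was at 19.4, 14.4 and 17.9 CPM in the vehicle samples of leukemia and WT, and 4.33, 1.04 and 2.36 with panobinostat. Its log2 change was -2.67 (SE 0.43, edgeR adjusted p = 0.0498). This call was lost without leukemia vehicle 1, leukemia panobinostat 2, WT vehicle or WT panobinostat, at edgeR adjusted p-values of 0.31, 0.28, 0.60 and 0.28, and in DESeq2 (0.10). It was also lost with upper-quartile factors, either other hashtag ratio, no deepest cells, or leukemia samples alone (edgeR adjusted p from 0.052 to 0.74). Atp1b1 was below the mean level of 10 CPM required of named genes and is given because it was the single gene lower.

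No list had more than 1 gene past the test. Of 18 genes of a list of known responses to deacetylase inhibitors, none passed. Cdkn1a, a cell cycle inhibitor that such drugs induce in many cells, was at 182, 139, 177, 160, 155 and 133 CPM (log2 change -0.03, SE 0.14). The linker histone gene H1f0 was at 59.7, 69.5, 46.9, 39.6, 45.8 and 40.9 CPM (log2 change -0.34, SE 0.18). Among the drug's targets, Hdac1 had a log2 change of 0.20 (SE 0.17) and Hdac2 of 0.16 (SE 0.26), and none of 5 histone deacetylases tested passed. None of 11 costimulation genes, 17 chemokine and cytokine genes, 22 NF-kB pathway genes, 14 MHC class II genes or 30 interferon-induced genes passed, with list medians of -0.03, 0.24, -0.01, 0.08 and 0.08 against -0.003 over all genes. Lgals1 was the 1 call among the 14 immune regulation genes. Ly6a was at 16.7 and 12 CPM in leukemia vehicle, 49.0 and 64.6 in leukemia panobinostat, and 14.6 and 18.5 in WT without and with the drug (log2 change 1.18, SE 0.31, edgeR adjusted p = 0.47). Without WT vehicle, and likewise without WT panobinostat, Ly6a passed at a change of 1.95 (edgeR adjusted p = 0.049 each), and it passed with no filter on low counts (0.0039). The chemokine gene Cxcl2 was at 2.78, 0, 4.33, 21.9, 10.6 and 30.7 CPM (edgeR adjusted p = 0.50, and 0.00047 with no filter). A term for a different response in leukemia and in WT was called for 0 of 8138 genes (edgeR), with 278 at an unadjusted p under 0.05. Marker sums that did not overlap between treatments in the members were those of 4 basophil or mast cell genes, 20.9 to 42.5 CPM with panobinostat and 63.1 to 127 with vehicle, mostly from Hdc and Ms4a2, and those of 5 monocyte genes, 20.5 to 39.6 and 16.4 to 16.8 CPM, with Fcgr1 at 0. The sum of 4 endothelial genes was 9.84 to 12.5 CPM with panobinostat and 6.94 to 9.71 with vehicle, with Emcn at 0. No endothelial gene and 1 monocyte gene reached 10 CPM over all members. The sums of the other marker lists overlapped, namely mature Ccr7, cDC1, cDC2, plasmacytoid, B, plasma, T, NK, erythroid, macrophage and neutrophil. How many of all genes separate in this way between 3 and 3 samples was not counted. The part of the basophil or mast, monocyte and endothelial genes in these results was not tested.

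The surface protein CD11c was at a lower median level in members of each panobinostat sample than of any vehicle sample, at the smallest p that the design allows. The CD11c antibody tag binds the integrin subunit encoded by Itgax, a surface protein by which dendritic cells are commonly recognised. In members, the median number of CD11c antibody UMIs per cell was 1774 and 1908 in leukemia with vehicle, 795 and 1086 in leukemia with the drug, and 1750 and 1147 in WT without and with it. All 3 panobinostat samples were below all 3 vehicle samples. The means were 1009 ± 188 (SD, n = 3) and 1810 ± 85.2 (SD, n = 3), a difference of -801 (2-sided exact permutation test, p = 0.1, the smallest possible, 0.16 after adjustment over the 8 antibody comparisons). As a share of both antibody tags, CD11c was 80.0% with panobinostat and 87.2% with vehicle. The Siglec-H tag, whose target was excluded by the rule, had means of 246 and 250 UMIs. Itgax RNA was at 72.2, 69.5, 78.6, 83.4, 90.4 and 93.3 CPM, with a log2 change of 0.15 (SE 0.15) that did not pass. Gated cells without the chemokines had CD11c medians of 1472, 1534, 1410, 1334, 1566 and 1359 in the same order. There too each panobinostat sample, at 1334 to 1410, was below each vehicle sample, at 1472 to 1566. The separation was therefore not particular to members, in which it was larger. B cells, which give the background of the tag, had medians of 134 to 261.

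**Figure D2:**
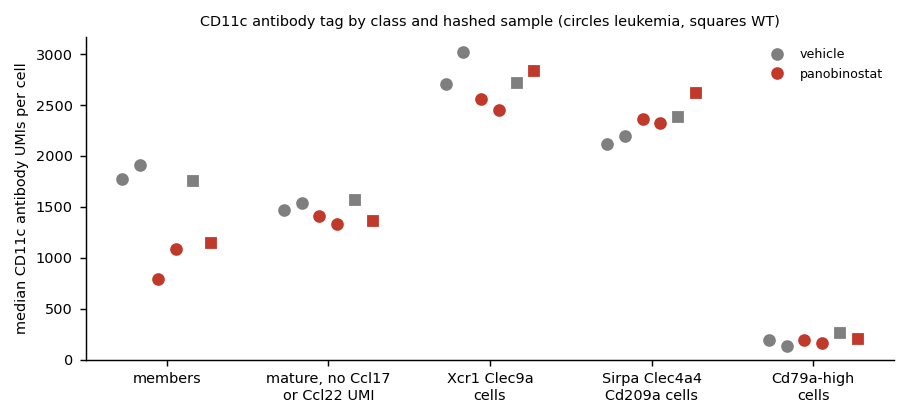
Median CD11c antibody UMIs per cell in members and 4 other classes, 1 point per hashed sample (grey vehicle, red panobinostat). In members the panobinostat samples lie at 795 to 1147 and the vehicle samples at 1750 to 1908, and Cd79a-high B cells show the background at 134 to 261.

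Across all 6 samples, CD11c of members was lower than that of conventional cells without Ccr7 or Fscn1 UMIs. The mean of the sample medians was 1410 in members, 2715 in Xcr1 Clec9a cells and 2333 in Sirpa Clec4a4 Cd209a cells. Members were lower in 6 of 6 samples in both comparisons (exact paired permutation test, p = 0.031, the smallest that 6 pairs allow, 0.125 after adjustment over 8). Against mature cells without the chemokines, 1446, the difference of -35.8 was within the spread (SD of the paired differences 385, exact p = 0.84).

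CD11c tag levels are also given for members with and without Ccl17, a split made after the values were seen and on a gene of the rule, so that no test is given. In the 223 members with a Ccl17 UMI the sample medians were 403, 885, 317, 217, 612 and 316, and in the 553 without one they were 2642, 1911.5, 1394, 1428, 1989 and 1881. The 2 sets did not overlap (means 458 and 1874), while Siglec-H medians were 243 and 249 on average. Leukemia vehicle 2 had 5 and leukemia vehicle 1 had 13 Ccl17-positive members. With panobinostat and vehicle the means were 283 ± 57.4 and 633 ± 242 (SD, n = 3) with a Ccl17 UMI, and 1568 ± 272 and 2181 ± 401 without one. The share of members with a Ccl17 UMI was 23.2, 16.1, 39.5, 25.9, 25.6 and 31.3%. It was 16.1 to 25.6% with vehicle and 25.9 to 39.5% with panobinostat. How much this share adds to the pooled CD11c difference was not tested.

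Between leukemia-bearing and WT mice, 7 of 7377 genes differed in members (0.0949%), 3 higher (0.0407%) and 4 lower (0.0542%) in leukemia (edgeR, treatment as covariate), with 398 at an unadjusted p under 0.05. Without leukemia vehicle 2 the counts were 8 higher and 14 lower, and without WT panobinostat 0 and 3. Cxcl9, a chemokine gene induced by interferon gamma whose product attracts CXCR3-bearing T cells, was at 636, 755, 569 and 776 CPM in the leukemia samples and 325 and 244 in WT. All 4 leukemia samples were above both WT samples, by 1.21 on the log2 scale (SE 0.14, edgeR adjusted p = 0.00073). Without WT panobinostat the change was 1.02 and the edgeR adjusted p 0.077. The call was also lost with members thinned to 3000 UMIs (0.92, edgeR adjusted p = 0.43) and without the deepest members (1.02, adjusted p = 1.0). When cells were thinned to 3000 UMIs before the rule was applied, which left out leukemia vehicle 2, the direction turned (-0.70, SE 0.37, edgeR adjusted p = 0.97). Ifi204 and Ifi211, genes of the Ifi200 family of interferon-induced nucleic acid sensors, were higher. Ifi204 was at 25.0, 14.4, 9.37 and 9.38 CPM in the leukemia samples and 1.21 and 1.57 in WT (log2 change 3.31, SE 0.56, edgeR adjusted p = 0.026). Ifi211 was at 129, 110, 93.0 and 86.5 CPM against 57.7 and 52.4 (log2 change 0.87, SE 0.16, edgeR adjusted p = 0.049). Both calls were lost in 5 of the 6 fits that each left out 1 hashed sample, all but the fit without leukemia vehicle 2, at edgeR adjusted p-values of up to 0.87 for Ifi204 and 0.80 for Ifi211. After thinning to 3000 UMIs the change of Ifi211 was 0.19 (SE 0.29, edgeR adjusted p = 0.97). Its call was also lost in DESeq2 (0.11), with the stricter gate (0.40), without the deepest members (0.61) and at hashtag ratios of 10 and 3 (0.052 and 0.061). Ifi204 was lost without the deepest members (edgeR adjusted p = 1.0) and at a ratio of 10 (0.0501). Genes of this family are close paralogs, and their counts are uncertain.

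A pair of inducible heat shock genes, Hspa1a and Hspa1b, was lower in leukemia. Hspa1a was at 604, 656, 687 and 585 CPM in the leukemia samples and 925 and 1247 in WT (log2 change -0.83, SE 0.11, edgeR adjusted p = 0.0029). Its near-identical neighbour Hspa1b was at 230.5, 297, 251, 211, 366 and 529 CPM (log2 change -0.92, SE 0.15, edgeR adjusted p = 0.017). Both encode inducible HSP70, and reads may be split between the copies. Without WT panobinostat neither passed, with changes of -0.62 (edgeR adjusted p = 0.39) for Hspa1a and -0.56 (1.0) for Hspa1b. Hspa1b was also lost without leukemia vehicle 1, leukemia panobinostat 1 or leukemia panobinostat 2, at edgeR adjusted p-values of 0.17, 0.11 and 0.11. With the stricter gate and after thinning before the rule neither passed (edgeR adjusted p = 0.064 and 0.09 for Hspa1a, 0.40 and 0.57 for Hspa1b). Hspa1b was also lost at a hashtag ratio of 10 and without the deepest members (0.058 and 0.071). Fam71a was at 11.1, 2.40, 14.4 and 9.38 CPM in leukemia and 48.9 and 33.9 in WT (log2 change -1.96, SE 0.31, edgeR adjusted p = 0.017). It lost its call without leukemia vehicle 1, leukemia panobinostat 2 or WT vehicle, at adjusted p-values of 0.18, 0.11 and 0.42, and at a hashtag ratio of 10 and without the deepest members (0.0501 and 0.096). The last was the predicted gene Gm34084 at 63.9, 50.3, 49.0, 49.0, 152 and 141 CPM, named after its values were seen to complete the 4 (log2 change -1.51, SE 0.15, edgeR adjusted p = 0.00018). It passed without any single sample, but not with thinned members, the stricter gate or no deepest members (edgeR adjusted p = 0.67, 0.074 and 0.096), and its change was 0.27 (SE 0.48) after thinning before the rule.

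**Figure D3:**
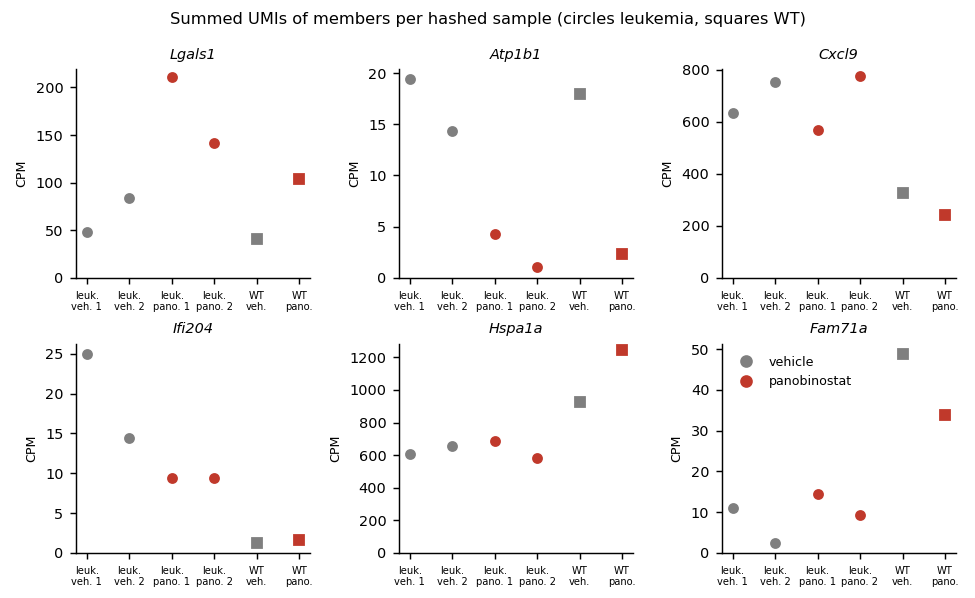
CPM of the summed members in each hashed sample for Lgals1 and Atp1b1, which differed with treatment, and Cxcl9, Ifi204, Hspa1a and Fam71a, which differed with disease (circles leukemia, squares WT, grey vehicle, red panobinostat). Lgals1 lies at 104 to 210.5 CPM with panobinostat and 40.7 to 83.8 with vehicle, and Cxcl9 at 569 to 776 CPM in leukemia and 244 to 325 in WT.

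Beyond single genes, 27 of 30 interferon-induced genes had a positive change in leukemia, with a median of 0.31 against 0.01 over all genes, but 1 of them passed, Ifi204. Isg15 was at 103, 76.7, 84.3 and 46.9 CPM against 40.4 and 37.4 (log2 change 0.96, edgeR adjusted p = 0.23). It passed with members thinned to 3000 UMIs (1.53, edgeR adjusted p = 0.016), with the stricter gate (1.45, 0.043) and with no filter on low counts (0.00098). The interferon response regulator Irf7 was at 79.1, 35.9, 46.9 and 42.7 CPM against 28.2 and 21.6 (log2 change 1.03, edgeR adjusted p = 0.26), and passed without leukemia vehicle 2 (1.22, edgeR adjusted p = 0.012) and with no filter (0.004). Of 18 endoplasmic reticulum folding genes, 16 were positive (median 0.24) and none passed. The disulfide isomerase gene Pdia6 had a log2 change of 0.64 (edgeR adjusted p = 0.23), and 0.69 without leukemia vehicle 2, where it passed (0.046), as it did with no filter (0.021). Of 24 immediate early and stress genes 4 were positive (median -0.15), and the 2 that fell were Hspa1a and Hspa1b. The ligands of the inhibitory receptor PD-1 did not pass. Cd274 was at 93.0, 81.5, 100.2 and 101 CPM against 60.1 and 63.4, and Pdcd1lg2 at 15.3, 19.2, 18.7 and 18.8 against 6.07 and 8.27, with every leukemia sample above both WT samples (edgeR adjusted p = 0.37 and 0.30). How many of all genes separate in this way between leukemia and WT samples was not counted, so the separation does not set these 2 genes apart. Il12b, the subunit that interleukin-12 shares with interleukin-23, was at 401, 438, 401 and 280 CPM against 243 and 244 (log2 change 0.58, edgeR adjusted p = 0.30). It passed at a hashtag ratio of 10 (0.96, edgeR adjusted p = 0.0064) and with no filter (0.54, 0.016).

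Compared with the 3402 cells of the same gate that held no Ccl17 or Ccl22 UMI, in the same 6 hashed samples, members showed higher Il12b, costimulatory and lipid genes and lower Ccl3, Ccl4 and cell cycle genes. Of 10030 genes tested, 12.1% passed (658 higher, 6.56%, and 555 lower, 5.53%; edgeR, hashed sample as block). Without WT vehicle, which held the most cells, 411 were higher and 365 lower. The genes of the gate are left out of these counts. Because the members were also the deeper cells, the list counts are given again from cells thinned to 3000 UMIs before the rule, a setting chosen after seeing the data in which members need more chemokine RNA per cell. The cells without the chemokines were also chosen after thinning there, and can include cells that lost their chemokine UMIs by it. Both sides of the comparison therefore changed. That setting left out leukemia vehicle 2, whose 12 members were too few to sum. It called 208 genes higher and 223 lower of 5671 tested. The list counts in that setting are to be read beside these counts over all genes. A count near that share does not set a list apart.

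Costimulation genes, which support T cell activation beside the antigen signal, were largely higher: 7 of 11 rose and 1 fell, with a median log2 change of 0.54 against -0.007 over all genes. Cd40, the receptor through which helper T cells license dendritic cells, was at 204, 264, 298, 267, 231 and 144 CPM in members and 127, 151, 128.5, 127, 92.8 and 81.7 CPM in cells without the chemokines. Members were higher in 6 of 6 samples, by 1.13 on the log2 scale (SE 0.08, edgeR adjusted p = 1.4e-09). Cd70, a ligand for CD27 on T cells, was at 8.66 to 20.9 CPM in members and 2.11 to 8.94 in the others, and was higher in 6 of 6 (log2 change 2.38, SE 0.26, edgeR adjusted p = 3.6e-07). Cd86 rose by less, 0.54 on the log2 scale, from 80.2 to 127.5 CPM in the others to 137 to 169 in members. Icosl, the ligand of ICOS, fell (log2 change -0.45, lower in 6 of 6). Cd274, encoding PD-L1, had a change of 0.16 (SE 0.10, edgeR adjusted p = 0.36). After thinning before the rule, 3 of 10 costimulation genes were higher and 1 lower (median 0.49), and Cd86 did not pass (0.50, edgeR adjusted p = 0.075). Icosl did not pass among cells with 5000 or more UMIs (-0.14, edgeR adjusted p = 0.45).

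Secreted signals split in both directions, with 5 of 18 chemokine and cytokine genes higher and 4 lower. Il12b rose most. It was at 401, 438, 401, 280, 243 and 244 CPM in members and 106.5, 59.3, 79.3, 86.6, 58.0 and 52.9 CPM in the others, with no overlap (log2 change 2.26, SE 0.09, edgeR adjusted p = 7.1e-15). A share of 36.2% of members and 15.9% of the others held an Il12b UMI, or 23.8 and 10.7% at 3000 UMIs per cell. In B cells, at a median of 6739 UMIs, 4.85% of cells held an Il12b UMI. Cxcl9 was at 244 to 776 CPM in members and 175 to 395 in the others and was higher in 5 of 6 samples, WT panobinostat being the exception with 244 against 326 (log2 change 1.13, SE 0.17, edgeR adjusted p = 4.6e-05). After thinning before the rule its change was -0.11 (SE 0.23). In pooled sums the rise of Cxcl9 lay in the members without a Ccl17 UMI, as given below. Cxcl16, a membrane-bound chemokine, rose by 0.38 (SE 0.06).

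The inflammatory chemokine genes Ccl3, Ccl4 and Ccl5 moved the other way. Ccl3 was at 8.33, 21.6, 47.6, 27.1, 41.6 and 35.0 CPM in members and 303, 220, 319, 278, 89.2 and 70.4 in the others. Ccl4 was at 27.8, 7.19, 61.3, 84.4, 78.9 and 76.4 CPM in members and 454, 428, 626, 576, 158 and 114 in the others. The log2 changes were -2.13 (SE 0.25) and -2.12 (SE 0.28), at edgeR adjusted p-values of 8.8e-07 and 8.3e-06, and both genes were lower in 6 of 6. In cells without the chemokines the 4 leukemia samples were above both WT samples for Ccl3 and Ccl4, while in members they were not. Ccl5 fell by 0.75 (SE 0.10) from 4184 to 10120 CPM in the others to 3397 to 4477 in members, and Il1b by 0.72 (SE 0.15). Each of the 4 was lower in 6 of 6 samples. In pooled sums, Ccl5 of members with a Ccl17 UMI was within the range of the others, as given below. After thinning before the rule, 4 of 16 chemokine and cytokine genes were higher and 4 lower. In DESeq2, Il1b did not pass (adjusted p = 0.062).

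**Figure D4:**
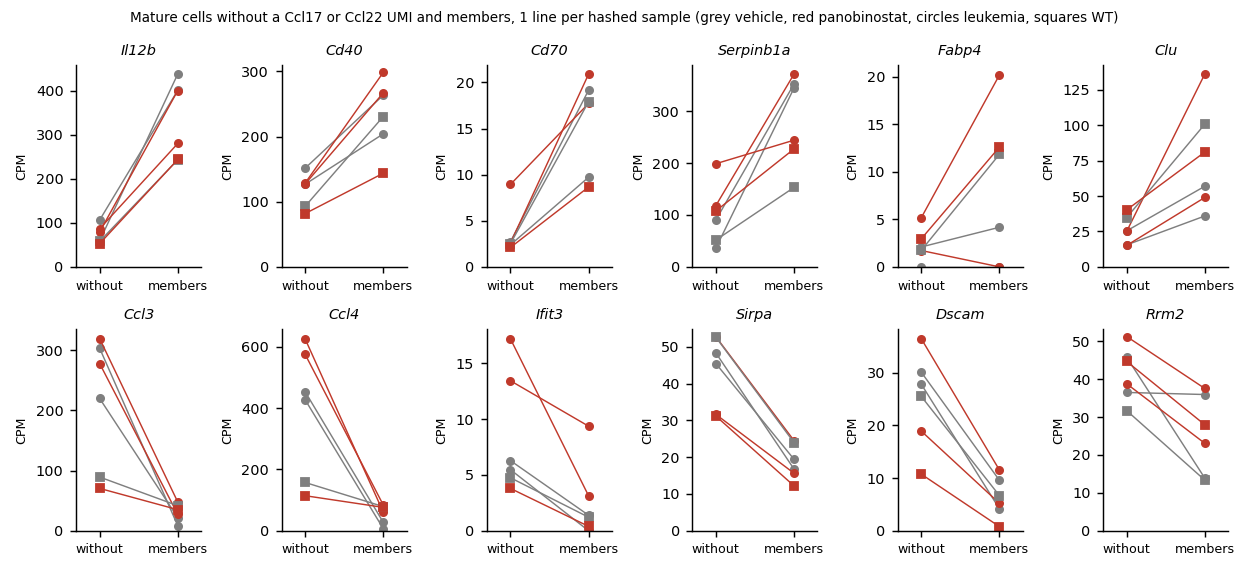
CPM of 12 genes in mature cells without a Ccl17 or Ccl22 UMI (left of each panel) and in members (right), with 1 line per hashed sample. Il12b lies at 243 to 438 CPM in members and 52.9 to 106.5 in the others, whereas Ccl3 lies at 8.33 to 47.6 and 70.4 to 319 CPM.

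Lipid and sterol genes were higher in members, with 12 of 21 raised and none lower (median 0.44). Clu was at 56.9, 35.9, 136, 49.0, 101 and 81.1 CPM in members and 25.4, 15.5, 25.1, 15.1, 34.8 and 40.2 in the others (log2 change 1.67, SE 0.14, edgeR adjusted p = 8.9e-09). In pooled sums this rise lay in the members with a Ccl17 UMI, as given below. Apoe, the lipid carrier apolipoprotein E, rose by 0.76 (SE 0.12). In the cholesterol synthesis pathway Sqle rose by 0.73 (SE 0.14) and Hmgcs1 by 0.61 (SE 0.12). The fatty acid binding protein gene Fabp4 rose by 2.13 (SE 0.33) but was at 0 in members of leukemia vehicle 2 and leukemia panobinostat 2 and at most 20.2 CPM elsewhere. Of 19 genes tested after thinning before the rule, 6 were higher and 1 lower (median 0.37), while Apoe and Sqle did not pass (0.32 and 0.69, edgeR adjusted p = 0.35 each).

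In the list of eicosanoid genes, serpins and other protease inhibitors, 7 of 17 were higher and 4 lower. Serpinb1a, an inhibitor of neutrophil serine proteases, was at 344, 352, 371, 244, 153 and 227 CPM in members and 36.2, 90.3, 118, 199, 51.6 and 108 in the others (log2 change 1.65, SE 0.19, edgeR adjusted p = 1.1e-06). Serpinb9, which inhibits granzyme B, rose by 1.07 (SE 0.08), Serpinb6b by 0.80 (SE 0.09) and Cst3, the cysteine protease inhibitor cystatin C, by 0.91 (SE 0.08). All 4 were higher in 6 of 6 samples. Ptgs2, the inducible cyclooxygenase, fell by 1.37 (SE 0.21) and was lower in 6 of 6. The alternative gave 6 higher and 3 lower of 14.

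Antigen presentation genes differed by small amounts. Of 22 MHC class I and loading genes, 10 rose and none fell (median 0.23), with Psmb8 of the immunoproteasome up by 0.44 (SE 0.06) and Psmb9 by 0.40 (SE 0.07). Of 14 MHC class II genes, 6 rose and 2 fell. Cd74, the invariant chain, rose by 0.41 (SE 0.05) and H2-Ab1 by 0.37 (SE 0.07). The uptake receptor gene Ly75 (DEC-205) rose by 0.79 (SE 0.09) within a list in which 6 of 14 were higher. After thinning before the rule the class I list kept its direction (4 of 22 higher, none lower, median 0.13). The class II list did not (0 higher and 2 lower of 14, median -0.41), and H2-Ab1 had a change of -0.14 (SE 0.10). Psmb9, Cd74 and Ly75 lost their calls there, at 0.02, 0.07 and 0.39 (edgeR adjusted p = 0.96, 0.71 and 0.23). None of 6 uptake genes passed there in either direction.

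Markers of the 2 conventional lineages differed between members and the other mature cells in opposite directions. All 7 cDC1 markers were higher, by 0.41 to 0.62 on the log2 scale, and 3 of 7 cDC2 markers were lower. The chemokine receptor gene Xcr1 was at 215, 165, 133, 262, 158 and 206 CPM in members and 120, 112, 104, 174, 123 and 201 in the others (log2 change 0.54, SE 0.09). Pooled levels of Xcr1 in members with and without a Ccl17 UMI are given below. The dead-cell receptor gene Clec9a rose by 0.53 (SE 0.11), Cadm1 by 0.56 (SE 0.10) and Naaa by 0.49 (SE 0.10). Sirpa, the inhibitory receptor that marks cDC2, was at 19.4, 16.8, 24.5, 15.6, 24.0 and 12.2 CPM in members and 45.5, 48.3, 52.7, 31.6, 52.6 and 31.2 in the others (log2 change -1.07, SE 0.12, edgeR adjusted p = 6.5e-07). In B cells, where free RNA and doublets were not told apart, Sirpa was at 19.8 CPM, about the level of members (19.3). Xcr1 was at 75.4 CPM in B cells, 183 in members and 454.5 in Xcr1 Clec9a cells. The cDC1 difference was smaller or turned under other forms of the rule. With the stricter gate, 6 of the 7 lost their calls: Xcr1 had a change of 0.31 (edgeR adjusted p = 0.056), Clec9a 0.36 (0.064), Naaa 0.16 (0.35), Itgae 0.53 (0.19), Tlr3 0.30 (0.33) and Wdfy4 0.25 (0.12). Sirpa was also lost there (-0.42, edgeR adjusted p = 0.13). With cells thinned to 3000 UMIs first, 0 of 5 cDC1 markers were higher and 1, Naaa, was lower (-0.80, SE 0.23, edgeR adjusted p = 0.021), with -0.19 for Xcr1 and -0.68 for Clec9a. Sirpa had a change of -0.50 there (SE 0.28, edgeR adjusted p = 0.35), and of the 2 cDC2 markers tested, Dtx1 was lower (-2.13, SE 0.51, edgeR adjusted p = 0.0036). In the fit at full depth, the calls of Itgae and Tlr3 were lost when single samples were left out, Itgae without leukemia panobinostat 1 or WT vehicle (edgeR adjusted p = 0.084 and 0.088) and Tlr3 without leukemia vehicle 1, leukemia panobinostat 2 or WT vehicle (0.051, 0.10 and 0.13).

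Counted per cell, 58.5% of members (exact 95% interval 55.0 to 62.0%) held more cDC1 than cDC2 marker UMIs, 10.8% the reverse and 30.7% as many of each. In the cells without the chemokines the shares were 40.1, 21.3 and 38.6%. These shares are at unequal depth (medians of 7434 and 5061.5 UMIs). An Xcr1 or Clec9a UMI was found in 41.2% of members, against 19.7% of B cells (median 6739 UMIs), 45.9% of plasmacytoid cells (5642) and 43.9% of erythroid cells (17140.5).

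Transcription factor genes of dendritic cells split, with 6 of 29 higher and 8 lower. Batf, which acts in cross-presenting cells, rose by 0.94 (SE 0.12). Irf8, the factor that cDC1 depend on, rose by 0.49 (SE 0.09), but its change was 0.20 with the stricter gate (edgeR adjusted p = 0.09) and -0.27 (SE 0.13) after thinning before the rule, where Batf did not pass (0.39, edgeR adjusted p = 0.60). Zeb2, which favours the cDC2 and monocyte fates, was at 47.2, 57.5, 108, 48.0, 68.9 and 49.2 CPM in members and 332, 323, 273, 234, 163 and 73.7 in the others (log2 change -1.48, SE 0.16). Klf4 fell by 0.53 (SE 0.09), and by 0.35 with the stricter gate (edgeR adjusted p = 0.059). In the NF-kB pathway 4 of 22 rose and 4 fell: Tnip3, an inhibitor of the pathway, rose by 1.38 (SE 0.15) and Nfkbiz fell by 0.84 (SE 0.14). After thinning before the rule, 0 of 25 transcription factor genes were higher and 1 lower, and 4 of 22 NF-kB genes higher and 1 lower. Relb, a subunit that dendritic cells use as they mature, fell by 0.25 (SE 0.06), and its change was -0.14 with the stricter gate (edgeR adjusted p = 0.35) and 0.002 (SE 0.06) among cells with 5000 or more UMIs.

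Of 42 interferon-induced genes, 9 were lower in members and 3 higher (median -0.13), or 2 and 1 of 26 after thinning before the rule. Ifit3 was at 0 to 9.37 CPM in members and 3.79 to 17.2 in the others (log2 change -1.52, SE 0.34), and the antiviral gene Rsad2 fell by 1.51 (SE 0.22). Ifit3 did not pass with thinned cells (edgeR adjusted p = 0.074), nor Rsad2 after thinning before the rule (-0.98, 0.11). The interferon-inducible GTPase gene Iigp1 rose by 1.93 (SE 0.30) from 1.20 to 6.19 CPM to 1.39 to 35.9 CPM. Cell cycle genes were lower: 10 of 26 fell and 1 rose (median -0.32). Cyclin D1 (Ccnd1) was at 174, 223, 273, 190, 207 and 166 CPM in members and 373, 513, 484, 364.5, 496.5 and 292 in the others (log2 change -0.90, SE 0.07). Rrm2, a subunit of ribonucleotide reductase, fell by 0.71 (SE 0.14), and the gene that rose was the inhibitor Cdkn1a (0.54, SE 0.09). After thinning before the rule 8 of 20 were lower and 1 higher (median -0.72). Among survival genes, 6 of 22 rose and 4 fell, with the anti-apoptotic gene Bcl2l1 up by 1.22 (SE 0.15), or 4 and 2 of 19 after thinning before the rule.

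Immune regulation genes were higher in 5 of 14 cases and lower in 1, and in 5 and 0 of 14 after thinning before the rule. Aldh1a2, which encodes an enzyme that makes retinoic acid, rose by 0.98 (SE 0.18), Lgals3 (galectin-3) by 0.93 (SE 0.08) and Lgals1 by 0.67 (SE 0.14). Lgals3 did not pass after thinning before the rule (0.34, edgeR adjusted p = 0.094). Lgals1 was higher in 5 of 6 samples, leukemia vehicle 1 being the exception, and in the cells without the chemokines it was at 65.2, 75.7, 76.0, 106, 31.9 and 70.4 CPM. None of 11 histone deacetylases passed. Anxa3 was at 263 to 401 CPM in members and 275 to 443 in the others (log2 change 0.03, SE 0.07, edgeR adjusted p = 0.89), so that of the 2 markers outside the rule Clu passed and Anxa3 did not. The rise of Clu was that of members with a Ccl17 UMI.

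Outside the lists, the largest increases among genes at a mean of 10 CPM or more with the same sign in every sample included AA467197 (log2 change 2.55, SE 0.23), the AP-1 family gene Jdp2 (1.79, SE 0.20), Pdzk1ip1 (1.39, SE 0.15), Anxa2 (1.36, SE 0.08), Ahnak (1.30, SE 0.12) and Il2ra, the alpha chain of the interleukin 2 receptor (1.23, SE 0.21). The largest decreases included Wfdc21 (-3.76, SE 0.30), the calcium channel gene Ryr3 (-2.71, SE 0.17), Serpina12 (-2.68, SE 0.36), the Wnt antagonist gene Dkk2 (-2.32, SE 0.25), Cdcp1 (-2.23, SE 0.24), Ms4a4c (-2.05, SE 0.19), midkine (Mdk, -2.0, SE 0.20) and the adhesion gene Dscam (-1.92, SE 0.20). Anxa2 was at 231 to 467 CPM in members and 118 to 160 in the others. Ryr3 was at 2.08 to 10.6 CPM and 15.6 to 67.9 CPM. Neither pair of ranges overlapped. Jdp2 and Dscam did not pass after thinning before the rule (1.76 and -1.13, edgeR adjusted p = 0.068 and 0.084).

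Against conventional cells that had no Ccr7 or Fscn1 UMI, members differed in about as many genes in each direction. Of 10144 genes, 45.2% passed against Xcr1 Clec9a cells (2429 higher and 2157 lower), and of 7932 genes 45.9% against Sirpa Clec4a4 Cd209a cells (1897 higher and 1742 lower; edgeR, hashed sample as block). With upper-quartile factors in place of TMM the median of all genes moved to -0.13 in both comparisons, and the splits became 2026 higher and 3032 lower, and 1599 higher and 2236 lower. Single genes with changes under that shift in size are not named here. The list counts below use TMM factors and include called changes of any size. Il12b was on average at 335 CPM in members, 2.96 in Xcr1 Clec9a cells and 1.65 in Sirpa Clec4a4 Cd209a cells (log2 change 6.50 and 7.78). Cd40 was at 235, 32.2 and 34.2 CPM (2.93 and 3.14), and Anxa3 at 341 against 5.10 CPM in Xcr1 Clec9a cells (6.05). The microRNA-155 host gene Mir155hg rose by 6.82 and 7.15.

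NF-kB pathway genes rose in 21 of 22 cases against Xcr1 Clec9a cells and in 17 of 22, with 1 lower, against Sirpa Clec4a4 Cd209a cells. Nfkb1 rose by 0.57 (SE 0.09) in the former and fell by 1.19 (SE 0.09) in the latter. Costimulation genes rose in 9 and 10 of 11, with 1 lower in each, and immune regulation genes in 13 of 14 in each, with Cd274 up by 3.0 (SE 0.12) and 0.82 (SE 0.13). Sterol and lipid genes rose in 16 of 20 (3 lower) and 17 of 19 (none lower). MHC class II genes were mostly lower, 10 of 14 (3 higher) and 7 of 14 (3 higher), and MHC class I genes mostly higher, 17 of 22 (3 lower) and 21 of 22. Cell cycle genes fell in 15 and 22 of 26, with 2 higher in each. Endoplasmic reticulum folding genes fell in 14 of 19 against Xcr1 Clec9a cells and rose in 13 of 19 against the others.

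The cDC1 markers of members mostly lay between the 2 conventional classes. Both classes were chosen on lineage genes and members were not. A mixed group would also lie between them, so this position does not show the origin of members. Against Xcr1 Clec9a cells all 5 cDC1 markers outside that class's own rule fell, with Cadm1 lower by 0.88 (SE 0.08) and Naaa by 1.38 (SE 0.08). Against Sirpa Clec4a4 Cd209a cells 4 of 5 cDC1 markers rose, with Cadm1 up by 5.11 (SE 0.17), Irf8 up by 3.55 (SE 0.15) and Itgam down by 3.16 (SE 0.33). Genes lowest relative to the Sirpa class included Tgm2 (-3.96), Sirpb1a (-3.84), Clec4a1 (-3.78) and Mmp12 (-3.48). Those lowest relative to the Xcr1 class were smaller changes, such as Fzd1 (-1.71), Gcsam (-1.53) and the chemokine receptor gene Cxcr3 (-1.50). Itgax RNA was lower than in both, by 0.37 (SE 0.07) and 1.07 (SE 0.10), as was the CD11c tag.

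Levels in the 223 members with a Ccl17 UMI and the 553 without one are given as a description, without a test, because Ccl17 is part of the rule. They are pooled over samples whose share with Ccl17 ran from 16.1 to 39.5%. Clu was at 276 CPM in Ccl17-positive and 30.2 CPM in Ccl17-negative members and was higher in 6 of 6 samples. The pooled gated cells without Ccl17 and Ccl22 UMIs were at 30.2 CPM of Clu, the level of the Ccl17-negative members. Ltc4s, the leukotriene C4 synthase gene, was at 87.8 and 14.5 CPM, Aldh1a2 at 44.3 and 11.6, S100a4 at 1748 and 500.5, Fabp5 at 1673 and 602, Serpinb1a at 471 and 166 and Ccl5 at 6669 and 3052. Zeb2 was at 138 and 42.2 CPM and Sirpa at 29.6 and 16.1, the latter close to its level in B cells given above. Lower in Ccl17-positive members were Il12b at 111 and 349 CPM (5 of 6 samples), Cxcl9 at 212 and 497 (6 of 6), Apoe at 110 and 259, Xcr1 at 108 and 206, and Cst3 at 12600 and 25900. Xcr1 was at 139 CPM in the pooled gated cells without the chemokines, between its levels in Ccl17-positive and Ccl17-negative members. Lgals1, the gene that rose with panobinostat, was at 129 and 86.1 CPM and was higher with Ccl17 in 6 of 6 samples. Median depth was 6392 UMIs with and 8325 without Ccl17.

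**Figure D5:**
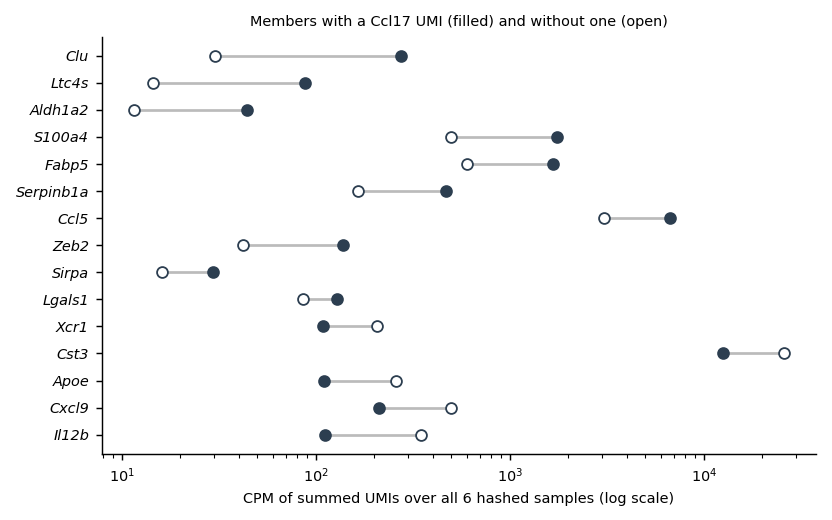
CPM, on a log axis, of 15 genes summed over members with a Ccl17 UMI (filled, 223 cells) and without one (open, 553 cells) from all 6 hashed samples. Clu lies at 276 against 30.2 CPM and Il12b at 111 against 349 CPM.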

How the data were processed

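Dendritic cells from 6 hashed mouse spleen samples were read in 1 droplet capture (10x 3′ chemistry). The authors deposited raw UMI counts of 31053 genes, 2 antibody tags and 6 hashtags, made with Cell Ranger 3.1.0 on mm10 (GRCm38), per the submitters' processing notes, which also list Seurat 3.1.0. Strand settings are not given in the sources used here.

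Hashed samples were assigned from the hashtag names, and the hashtag rule also removed doublets between samples. Doublets within a sample were not called, and an alternative left out members above the 95th percentile of depth. Counts were summed per hashed sample and class and fitted with edgeR 4.0.16 (R 4.3.3, TMM, filterByExpr, quasi-likelihood test, Benjamini-Hochberg adjustment over all genes). Treatment and disease were fitted together over the 6 sums. Class comparisons had the hashed sample as a block. CPM were computed from these sums. Xcr1 Clec9a cells had the same exclusions, no UMI of Ccr7, Fscn1, Ccl17 or Ccl22, and 2 or more of Xcr1 and Clec9a. Sirpa Clec4a4 Cd209a cells had 2 or more of those genes, 1 or more of Zbtb46 and Flt3, and none of Xcr1, Clec9a, C1qa and Vcam1. Medians and shares per sample were compared with exact permutation tests (scipy 1.17.1). Alternatives used DESeq2 1.42.0, other filters, factors, gates, hashtag ratios and depths, and left out each sample. On simulated data, 76% of genes changed by 1 log2 unit and 98% of those changed by 2 were recovered for treatment (7382 genes), and 85% and 100% for classes (10035 genes). Among the unchanged genes 10 and 5 were called. The simulated counts had the same dispersion for all genes, the same mean profile for all samples and no disease difference. Dispersion varies between real genes, so recovery in the data may be lower.

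Members and gene lists were chosen with earlier results of these data known. Genes named are the markers, list members and, per comparison, the 10 largest changes in each direction among called genes at a mean of 10 CPM or more with the same sign in every matched contrast, without predicted genes.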

Additional observations from a re-analysis of the deposited data

Results flagged for a closer look

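A further 439 barcodes met the quality rule and the gene rule but not the hashtag rule. Their median depth was 11680 UMIs, against 7434 in members, and they entered no comparison.

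Only the 2 called and 14 other genes examined by name for panobinostat against vehicle were searched for opposite signs in leukemia and WT. A gene also needed both leukemia panobinostat samples on the same side of both leukemia vehicle samples. For 4 of these genes the difference between panobinostat and vehicle had opposite signs in leukemia and in WT. WT had 1 sample per treatment, and the WT differences of Il12b and Ccl4 were close to 0. How many of all genes tested meet this rule was not counted. Differences are on the log2(CPM + 1) scale. Ccl3 differed by 1.349 in leukemia and -0.241 in WT. Ccl4 differed by 2.249 and -0.047. Il12b differed by -0.322 and 0.004. Cd40 differed by 0.282 and -0.679. In the edgeR term for a different response in leukemia and in WT, the differences were 1.77 for Ccl3 (SE 0.57), 1.90 for Ccl4 (SE 0.48), -0.28 for Il12b (SE 0.29) and 0.99 for Cd40 (SE 0.28). Their edgeR adjusted p-values were 1.0, 0.77, 1.0 and 1.0, and their unadjusted ones 0.006, 0.00085, 0.35 and 0.0018. The term was called for 0 of 8138 genes (edgeR), with 278 at an unadjusted p under 0.05.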

How the results depend on the processing

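Panobinostat against vehicle gave 1 gene higher and 1 lower. The number higher was 23 without a filter on low counts, 2 with cells thinned to 3000 UMIs, 0 with the stricter gate and 3 with thinning before the gate, and 0 to 4 when each hashed sample was left out. The number lower was 19 without the filter, 0 with DESeq2, upper-quartile factors, a hashtag ratio of 10 or 3, thinning, no deepest cells, or leukemia samples only, and 0 to 2 when each sample was left out. Leukemia against WT gave 3 higher and 4 lower. The number higher was 18 without the filter, 1 thinned, 0 without the deepest cells, 0 thinned before the gate and 0 to 8 with samples left out. The number lower was 32 without the filter, 2 at a hashtag ratio of 10, thinned, or with the stricter gate, 1 without the deepest cells or thinned before the gate, and 2 to 14 with samples left out. Against mature cells without the chemokines, 658 were higher and 555 lower. Thinning gave 343 higher, thinning before the gate 208 and 223, DESeq2 327 lower, the stricter gate 332 lower, and leaving out samples 411 to 667 higher and 365 to 582 lower. Against Sirpa Clec4a4 Cd209a cells, thinning gave 1166 and 1119, and DESeq2 1155 lower. Thinning left 3368 genes to test in place of 7377 for treatment and disease. The cause of the other changes was not tested.

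Thinning before the gate turned the leukemia changes of Cxcl9 (-0.702) and Gm34084 (0.266). Against the other mature cells it turned Cxcl9 (-0.11), Irf8 (-0.268), Xcr1 (-0.191), Clec9a (-0.675), Cadm1 (-0.262), Naaa (-0.795), Wdfy4 (-0.401), Ifi205 (-0.567) and H2-Ab1 (-0.141). Relb turned to 0.002 at 5000 or more UMIs. Of 87 called genes examined there, 42 kept direction and call in every setting, as did 36 of 36 against Xcr1 Clec9a and 35 of 35 against Sirpa Clec4a4 Cd209a cells. The stricter gate and thinning before the gate left out leukemia vehicle 2, which had under 20 members.

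With a replicate block by the number in the hashtag name, panobinostat gave 10 higher and 5 lower. Over 7382 genes, the difference between leukemia vehicle 1 and 2 correlated with that between leukemia panobinostat 1 and 2 at r = 0.089. This single value includes counting noise and cannot show whether the numbers pair the samples. Leukemia vehicle 2 had 31 members, and WT had 1 sample per treatment.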
